A study of Saccharomyces cerevisiae with 24 samples.

Results

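The transcripts described here are those of 55 yeast amino acid biosynthesis genes, out of 6205 open reading frames on the arrays. They were chosen by name, with earlier results of these data known, as genes of arginine (7), histidine (5), lysine (6), branched-chain (10), aromatic (8), threonine (5), serine (3) and sulfur amino acid (10) synthesis, together with GCN4. Other measured genes of these pathways, such as ARG2, HIS6, ARO7, SER33 and MET5, are among 36 further synthesis enzymes given below. Pathway counts and medians therefore cover the listed genes only. The common marker genes HIS3, LEU2, LYS2 and TRP1 were left out of the 55 and are given beside their pathways as a check. Total RNA of Saccharomyces cerevisiae grown in YEPD, a rich medium, was compared between pairs of strains on 2-colour arrays. Strain UCC6406 carries dot4-1, strain UCC6407 carries dot4-5, strain UCC6435 is the dot4 null and strain UCC6432 carries wild-type DOT4 without an epitope tag. Each was hybridised against UCC6408, in which wild-type DOT4 carries the 6Myc tag. The dot4-1 allele is labelled as 6Myc-tagged too. Every strain had 3 numbered sets of 2 arrays with the dyes exchanged, which makes 6 arrays for each strain and 24 in all. The sources used here do not give what the dot4-1 and dot4-5 alleles change, which other markers the strains carry, or whether a strain was 1 isolate. Whether the sets were separate cultures is not given either, so p-values reflect only how far sets lie apart within strains. The fit pooled that spread over the 4 strains, and part of it may be technical.

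Yeast makes all of its amino acids, and most of the genes for doing so are activated by the transcription factor Gcn4, whose own synthesis is controlled mainly at translation in the response called general amino acid control. Individual pathways also have activators of their own that respond to an intermediate or end product, such as Leu3 for leucine, Lys14 for lysine, and Met4 with Cbf1 for sulfur. A few members work differently: CHA1 encodes an enzyme that breaks serine and threonine down and is induced by them. DOT4 is the older name of UBP10, which encodes a deubiquitinase that acts on histone H2B and was found through its part in telomeric silencing.

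All values below are log2 ratios of the named strain over DOT4-6Myc, given for each set or as the mean ± SD over 3 sets, and adjusted p-values come from one limma fit over 6195 genes, with 0.05 as the threshold. The sign is the likely one. Taking each label as Cy5 over Cy3 would put UBP10 above the reference on all 6 null arrays, and would turn each sign given here. In the direction used, UBP10 was at -4.48, -4.48 and -5.11 in the 3 sets of the strain labelled null, -0.57, -0.60 and -0.68 in dot4-1, -0.21, -0.25 and -0.26 in dot4-5 and -0.14, -0.11 and -0.27 in untagged DOT4. It was lower in every set of the strain labelled null than in any set of the other strains. The direction was chosen to make UBP10 lower in the strain labelled null, so its sign there is no check of that choice. The arrays of the other strains were turned by the same rule, with no such gene of their own to set it. Arrays were centred on their medians, so a ratio is relative to the other genes of that array, and a difference in mRNA per cell was not measured. All 55 members could be tested, and each also matched a gene of the reference annotation.

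In the strain labelled null, 27 of the 55 genes were lower than in DOT4-6Myc and 7 were higher, or 49.1% and 12.7% of the members, where 32.7% and 30.7% of all genes tested were lower and higher. The lower genes were led by BAT2, ARG1, MET6 and HIS4, and the higher ones by CHA1 and SER3. The median of the members was -0.13, against -0.010 over all genes, and their means ran from -1.12 to 1.00. In dot4-1, 36 members (65.5%) were lower and 6 (10.9%) were higher, where 37.5% and 35.9% of all genes were. Their median was -0.19, against -0.0063 over all genes. In dot4-5, limma called 0 of 55 members in either direction, and 4 had an unadjusted p under 0.05. Among all genes, 0.92% were higher and 0.113% lower there. The means of the members in dot4-5 lay between -0.13 and 0.11. In untagged DOT4, 22 members (40%) were lower and 2 (3.64%) higher, where 14.6% and 11.2% of all genes were, and the median was -0.070 against -0.0053. The lower shares of the members thus lay above those of all genes in the strain labelled null, dot4-1 and untagged DOT4, and the higher shares lay below. Because the members were chosen with earlier results of these data known, these shares are not an independent test. Of 36 further synthesis enzymes, 41.7% were lower and 30.6% higher in the strain labelled null. Their shares were 44.4% and 30.6% in dot4-1 and 30.6% and 8.33% in untagged DOT4. The 4 comparisons share the DOT4-6Myc reference.

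The counts for untagged DOT4 moved with the processing. With that strain in Cy3 only, 8 members were higher and 7 lower, so the excess of lower members was gone, and 7 of the 24 calls were shared and 1 was opposite. The counts became 0 higher and 23 lower without centring, and 7 higher and 24 lower with arrays scaled to a common spread. Without its set 2, 13 members were lower, and without set 1 or set 3, 0 were higher. Among all genes called in untagged DOT4, 43.3% were higher, against 12.5% without centring, and in dot4-5 the share was 89.1%, against 53% with scaled arrays, where 2 members were higher and 6 lower. The 7 members higher in the strain labelled null became 4 without its set 2.

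**Figure D1:**
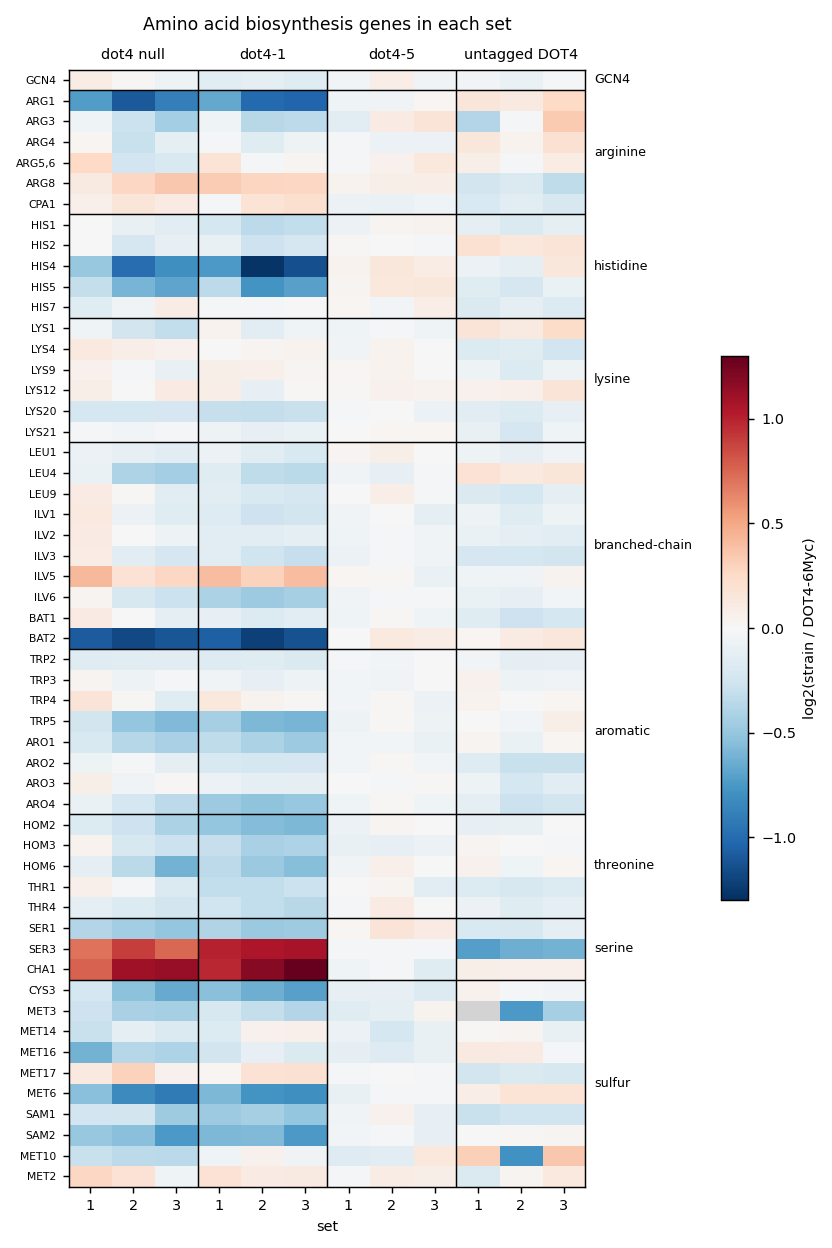
Colours give the log2 ratio of each strain over DOT4-6Myc for 54 of the 55 genes (rows, by pathway) in sets 1, 2 and 3 of the 4 strains (columns); blue is lower, red is higher and grey is a set with an empty cell. BAT2, ARG1, HIS4 and MET6 are blue and SER3 and CHA1 red in all 3 sets of the strain labelled null and of dot4-1, while the dot4-5 columns are pale.

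**Figure D2:**
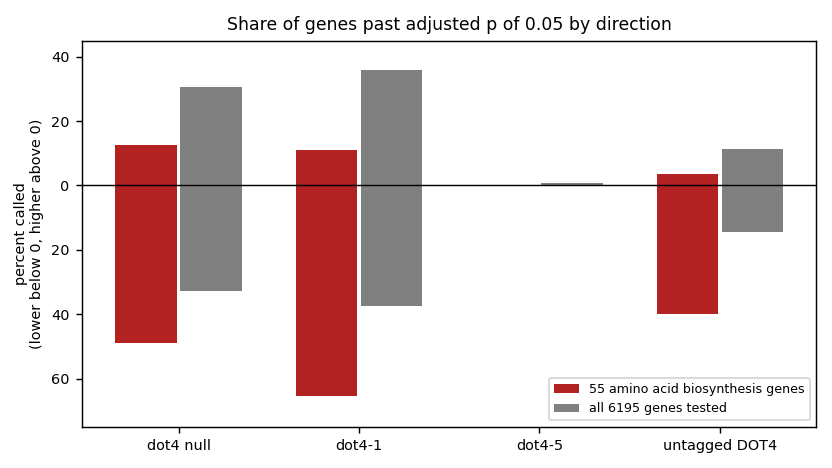
Bars give the percent of genes past an adjusted p of 0.05, higher genes above 0 and lower genes below 0, for the 55 members (red) and all 6195 genes tested (grey) in each strain. The members' lower share is 49.1% in the strain labelled null, 65.5% in dot4-1 and 40% in untagged DOT4, and 0 in dot4-5.

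GCN4 (YEL009C), the activator itself, lay close to the reference in all 4 strains. It was at 0.10, 0.018 and -0.063 in the sets of the strain labelled null and at -0.15, -0.12 and -0.16 in dot4-1. In dot4-5 it was at -0.041, 0.085 and -0.043, and in untagged DOT4 at -0.040, -0.085 and -0.029. Only in the fit for dot4-1 did it pass the threshold, at -0.14 ± 0.021 (limma, adjusted p = 0.00518), and the 3 sets there were all below 0. This call held in 8 of 12 alternatives: it was lost without centring (-0.13, adjusted p = 0.0654), with arrays scaled to a common spread (-0.070, adjusted p = 0.185) and with the set as a random block (-0.14, adjusted p = 0.196), and turned in Cy3 only. The dot4-1 value was -0.39 with the strain in Cy5 and 0.11 with the strain in Cy3, so its sign depended on the dye. GCN4 differed from dot4-1 to the strain labelled null by 0.16 ± 0.054 (SE), which missed the threshold (limma, adjusted p = 0.0762). The arrays measure GCN4 mRNA and not the Gcn4 protein.

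Of the 7 arginine genes, 2 were higher and 2 lower in the strain labelled null and in dot4-1 alike. Each is a share of 28.6%, near the shares of all genes in the strain labelled null (30.7% and 32.7%) and somewhat below those in dot4-1 (35.9% and 37.5%), and the counts of the other pathways are likewise to be set beside these shares. The medians were -0.13 and -0.079. ARG1 (YOL058W), argininosuccinate synthetase, was at -0.73, -1.09 and -0.89 in the strain labelled null and -0.67, -1.01 and -1.03 in dot4-1. It was at -0.055, -0.049 and 0.022 in dot4-5 and 0.15, 0.12 and 0.26 in untagged DOT4. All 6 sets of the first 2 strains lay below all 6 of the others. The means correspond to a 1.87-fold lower level in the strain labelled null (-0.90 ± 0.18, limma, adjusted p = 7.42e-07) and a 1.87-fold lower level in dot4-1 (-0.90 ± 0.20, adjusted p = 4.68e-07). CPA1 (YOR303W), the small subunit of carbamoyl phosphate synthetase, was higher at 0.11 and 0.12 in these strains. ARG8 (YOL140W), acetylornithine aminotransferase, was at 0.12, 0.27 and 0.35 in the strain labelled null and 0.33, 0.28 and 0.27 in dot4-1, at 0.041, 0.077 and 0.084 in dot4-5 and at -0.24, -0.19 and -0.33 in untagged DOT4. The sets of untagged DOT4 were the only ones below 0. ARG8 was higher in the first 2 strains and lower in untagged DOT4 (limma, adjusted p = 0.000353, 6.95e-05 and 0.00129). ARG3 (YJL088W), ornithine carbamoyltransferase, ARG4 (YHR018C), argininosuccinate lyase, and ARG5,6 (YER069W), which encodes early enzymes of the pathway, passed the threshold in none of the 4 strains.

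Of the 5 histidine genes, 3 were lower in the strain labelled null, 4 were lower in dot4-1, and 0 were higher in either. The medians were -0.11 and -0.30. HIS6, a measured histidine gene outside these 5, was higher in both strains, at 0.40 and 0.32. HIS4 (YCL030C), a multifunctional enzyme that includes histidinol dehydrogenase, was at -0.50, -0.99 and -0.79 in the strain labelled null and -0.75, -1.27 and -1.14 in dot4-1. It was at 0.045, 0.15 and 0.093 in dot4-5 and -0.077, -0.13 and 0.15 in untagged DOT4. All 6 sets of the first 2 strains again lay below all 6 of the others, and HIS4 was lower by 1.69-fold (-0.76 ± 0.25, limma, adjusted p = 3.10e-05) and 2.07-fold (-1.05 ± 0.27, adjusted p = 1.49e-06). HIS5 (YIL116W), histidinol-phosphate aminotransferase, followed at -0.53 ± 0.20 and -0.60 ± 0.24. HIS1 (YER055C), the first enzyme of the pathway, was lower in dot4-1 at -0.30 ± 0.059 and was at -0.079 ± 0.077 in the strain labelled null, where it missed the threshold. HIS2 (YFR025C), histidinol phosphatase, was lower in both strains, at -0.11 and -0.19, and higher in untagged DOT4 at 0.17. HIS7 (YBR248C), imidazole glycerol phosphate synthase, was lower in untagged DOT4 at -0.16 and passed in no other strain. The marker gene HIS3, which acts between these steps, was at -1.72 ± 0.21, -2.83 ± 0.13, -0.097 ± 0.068 and 0.87 ± 0.14 in the strain labelled null, dot4-1, dot4-5 and untagged DOT4. The sources used here give no HIS3 genotypes, and the part of HIS3 in the levels of the other histidine genes was not tested.

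Of the 8 pathways, lysine synthesis had the medians closest to the reference (-0.024 and -0.025) in the strain labelled null and dot4-1. In the strain labelled null 1 of 6 was higher and 2 were lower, in dot4-1 0 were higher and 2 lower, and in untagged DOT4 1 was higher and 3 lower. The means of the 6 genes ran from -0.23 to 0.088 in the strain labelled null and from -0.30 to 0.060 in dot4-1. LYS20 (YDL182W), a homocitrate synthase, was lower in the strain labelled null, dot4-1 and untagged DOT4 at -0.23, -0.30 and -0.15. Its close paralog LYS21 (YDL131W) was at -0.029, -0.087 and -0.12 and passed in dot4-1 and untagged DOT4. The pair is similar enough in sequence that hybridisation to each other's probe makes the separate values uncertain. LYS1 (YIR034C), the saccharopine dehydrogenase that forms lysine, was lower in the strain labelled null at -0.20 and higher in untagged DOT4 at 0.18. LYS4 (YDR234W), homoaconitase, went the other way, at 0.088 and -0.19. LYS9 (YNR050C), the other saccharopine dehydrogenase, and LYS12 (YIL094C), homoisocitrate dehydrogenase, passed in none of the strains. The marker LYS2 was at -0.22, -0.22, 0.028 and 0.018 in the strain labelled null, dot4-1, dot4-5 and untagged DOT4 and missed the threshold in each. Its dye orientations stood far apart, with 1.38 in Cy5 and -1.34 in Cy3 for untagged DOT4.

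The branched-chain genes held the lowest member of all. BAT2 (YJR148W), the cytosolic branched-chain aminotransferase, was at -1.08, -1.18 and -1.11 in the strain labelled null and -1.06, -1.21 and -1.13 in dot4-1. It was at 0.0050, 0.13 and 0.094 in dot4-5 and 0.030, 0.11 and 0.15 in untagged DOT4. The 6 sets of the first 2 strains lay within a narrow range and far below the other 6. BAT2 was 2.18-fold lower in the strain labelled null (-1.12 ± 0.049, limma, adjusted p = 4.88e-09) and 2.19-fold lower in dot4-1 (-1.13 ± 0.079, adjusted p = 1.10e-09). Its mitochondrial counterpart BAT1 (YHR208W) was near 0 in the strain labelled null, with sets at 0.11, 0.0075 and -0.11, and was lower in dot4-1 at -0.14 ± 0.038 and in untagged DOT4 at -0.22 ± 0.059. Across the 10 genes, 1 was higher and 4 were lower in the strain labelled null, and 1 was higher and 9 were lower in dot4-1. The medians were -0.065 and -0.20. The higher gene was ILV5 (YLR355C), acetohydroxyacid reductoisomerase, at 0.29 ± 0.12 and 0.37 ± 0.059. ILV5 was at 0.045 and 0.11 with these strains in Cy5 and at 0.54 and 0.63 with them in Cy3. Enzymes that act just before and after it were lower in dot4-1: ILV2 (YMR108W), the catalytic subunit of acetolactate synthase, at -0.13, its regulatory subunit ILV6 (YCL009C) at -0.44 and ILV3 (YJR016C), dihydroxyacid dehydratase, at -0.23. ILV1 (YER086W), threonine deaminase, was lower in dot4-1 at -0.22.

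In the leucine branch, LEU4 (YNL104C), isopropylmalate synthase, was lower at -0.31 and -0.28 in the strain labelled null and dot4-1. LEU1 (YGL009C), isopropylmalate isomerase, was lower at -0.11 and -0.14. The paralog LEU9 (YOR108W) was at -0.0093 in the strain labelled null and was lower in dot4-1 and untagged DOT4, at -0.18 and -0.18. LEU4 and LEU9, and BAT1 and BAT2, are paralog pairs, and the sources used here do not say how far the probes tell such a pair apart. In untagged DOT4, 4 of the 10 genes were lower, led by ILV3, whose sets were at -0.22, -0.23 and -0.24 (limma, adjusted p = 0.00593). With untagged DOT4 in Cy3 alone ILV3 was at -0.13 and missed the threshold. ILV3 was at 0.094, -0.15 and -0.22 in the strain labelled null, -0.15, -0.26 and -0.30 in dot4-1 and -0.072, -0.023 and -0.041 in dot4-5, so only the first of these held values on both sides of 0. The marker LEU2, isopropylmalate dehydrogenase of the same branch, was at -0.93 ± 0.16, -0.94 ± 0.15, -0.045 ± 0.058 and 0.22 ± 0.062 in the strain labelled null, dot4-1, dot4-5 and untagged DOT4. The sources used here give no LEU2 genotypes, and its part in the levels of the other genes was not tested.

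**Figure D3:**
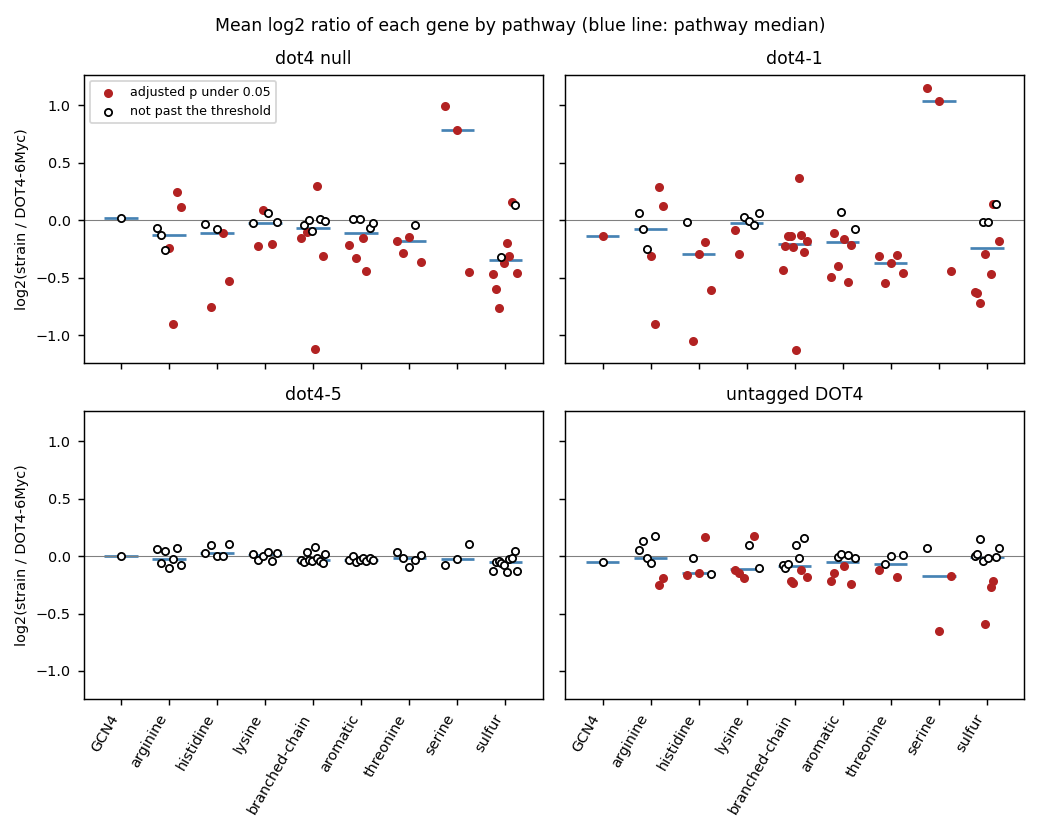
Each point is the mean log2 ratio of a gene over 3 sets, by pathway, in each strain; filled red points passed an adjusted p of 0.05 and the blue line is the pathway's median. The histidine, branched-chain, aromatic and threonine medians are lower in dot4-1 than in the strain labelled null, and no point is filled for dot4-5.

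Of the 8 aromatic genes, 4 were lower in the strain labelled null, 6 in dot4-1 and 4 in untagged DOT4, and 0 were higher in any of these. The medians were -0.11, -0.19 and -0.054. Measured aromatic genes outside these 8 were mixed in the strain labelled null and dot4-1. ARO7 was higher there at 0.50 and 0.65 and TYR1 at 0.23 and 0.32, while ARO8 was lower at -0.16 and -0.28. ARO9 was higher in the strain labelled null at 0.37 and missed the threshold in dot4-1, and PHA2 missed it in both. TRP5 (YGL026C), tryptophan synthase, was lowest in the strain labelled null and dot4-1, at -0.44 ± 0.18 and -0.54 ± 0.094. ARO1 (YDR127W), which carries several steps of the shikimate pathway, was at -0.33 ± 0.12 and -0.40 ± 0.072. TRP2 (YER090W), anthranilate synthase, was lower in the same strains and in untagged DOT4, by small amounts (-0.15, -0.17 and -0.089). TRP3 (YKL211C) and TRP4 (YDR354W), which act next to TRP2, passed in none. The entry enzymes of the pathway, the DAHP synthases ARO3 (YDR035W) and ARO4 (YBR249C), were at 0.013 and -0.22 in the strain labelled null and at -0.11 and -0.49 in dot4-1. ARO2 (YGL148W), chorismate synthase, was at -0.16, -0.29 and -0.29 in untagged DOT4 and -0.20, -0.22 and -0.22 in dot4-1. It was at -0.070, -0.016 and -0.13 in the strain labelled null and -0.036, 0.015 and -0.036 in dot4-5. ARO2 was lower in untagged DOT4 (limma, adjusted p = 0.000409) and in dot4-1 (adjusted p = 0.000142), and all sets of these strains lay below all sets of the other strains. The marker TRP1, of tryptophan synthesis, was at -0.18, -0.97, 0.0027 and -0.17 in the strain labelled null, dot4-1, dot4-5 and untagged DOT4, and its part in these levels was not tested.

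The threonine branch, which leads from aspartate through homoserine, was lower as a whole in dot4-1, where 5 of 5 genes passed and the median was -0.37. In the strain labelled null 4 of 5 were lower, with a median of -0.18, and in untagged DOT4 2 were. The 3 enzymes that make homoserine were lower in both of the first strains. HOM3 (YER052C), aspartate kinase, was at -0.15 ± 0.17 and -0.37 ± 0.067, HOM2 (YDR158W), aspartate semialdehyde dehydrogenase, at -0.29 ± 0.12 and -0.55 ± 0.042, and HOM6 (YJR139C), homoserine dehydrogenase, at -0.36 ± 0.24 and -0.46 ± 0.11. All 3 lay near the reference in untagged DOT4, at 0.0032, -0.070 and 0.0092, and missed the threshold there. The last steps, THR1 (YHR025W), homoserine kinase, and THR4 (YCR053W), threonine synthase, were lower in dot4-1 (-0.30 and -0.31) and in untagged DOT4 (-0.19 and -0.12). In the strain labelled null THR4 was lower too, at -0.18, while THR1 was at -0.045 and missed the threshold.

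The serine group held the highest members. SER3 (YER081W), a phosphoglycerate dehydrogenase that begins serine synthesis, was at 0.71, 0.90 and 0.75 in the strain labelled null and 1.00, 1.05 and 1.07 in dot4-1. It was at -0.028, -0.020 and -0.028 in dot4-5 and -0.72, -0.63 and -0.61 in untagged DOT4. No set of one strain overlapped with those of another for this gene. SER3 was 1.72-fold higher in the strain labelled null (0.79 ± 0.10, limma, adjusted p = 2.60e-08), 2.06-fold higher in dot4-1 (1.04 ± 0.037, adjusted p = 1.71e-09) and 1.57-fold lower in untagged DOT4 (-0.65 ± 0.055, adjusted p = 7.03e-07). SER3 has a close paralog, SER33, and the sources used here do not say whether the probe tells them apart. SER33 was higher at 0.14 in the strain labelled null and 0.31 in dot4-1 (limma, adjusted p = 0.00935 and 2.11e-05). SER1 (YOR184W), phosphoserine aminotransferase of the same pathway, was lower in the strain labelled null, dot4-1 and untagged DOT4, at -0.45 ± 0.061, -0.44 ± 0.047 and -0.17 ± 0.045. It was at 0.10 ± 0.073 in dot4-5. CHA1 (YCL064C), the catabolic serine and threonine deaminase, was at 0.76, 1.10 and 1.14 in the strain labelled null and 0.98, 1.18 and 1.30 in dot4-1. It was at -0.056, -0.023 and -0.16 in dot4-5 and 0.078, 0.069 and 0.071 in untagged DOT4. The first 2 strains lay far above the others. CHA1 was 2-fold higher in the strain labelled null (1.00 ± 0.21, limma, adjusted p = 2.44e-07) and 2.22-fold higher in dot4-1 (1.15 ± 0.16, adjusted p = 5.52e-08).

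CHA1 lies near the left end of chromosome III with 5 protein-coding genes before it, next to the silent mating-type genes of HML. It is 1 of 2 members among the 10 outermost protein-coding genes of a chromosome end, the other being LYS1. On the telomere side, HMLALPHA1 and HMLALPHA2 were at 0.071 and -0.045 in the strain labelled null and at -0.028 and 0.026 in dot4-1, and missed the threshold in both. These genes share their sequence with the mating-type locus, so their own signal is uncertain. On the other side, VAC17 was higher at 0.22 and 0.29, and KRR1, a ribosome assembly factor 3 genes away, at 0.82 and 0.83. MRC1 between them was at -0.0089 in the strain labelled null, where it missed the threshold, and was higher in dot4-1 at 0.26. Neighbours were also called in untagged DOT4, where CHA1 missed the threshold: HMLALPHA2, VAC17 and MRC1 were higher at 0.15, 0.17 and 0.17, and KRR1 was lower at -0.40.

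Sulfur assimilation and methionine genes were lower in 7 of 10 cases in the strain labelled null and in 6 of 10 in dot4-1, with 1 higher in each. The medians were -0.35 and -0.24, so this was the lowest pathway median in the strain labelled null. MET6 (YER091C), methionine synthase, was at -0.54, -0.83 and -0.92 in the strain labelled null and -0.58, -0.77 and -0.80 in dot4-1. It was at -0.093, -0.013 and -0.030 in dot4-5 and 0.086, 0.18 and 0.18 in untagged DOT4. The sets of the first 2 strains all lay below those of the others, and MET6 was 1.7-fold lower (-0.76 ± 0.20, limma, adjusted p = 8.58e-07) and 1.65-fold lower (-0.72 ± 0.12, adjusted p = 9.14e-07). SAM2 (YDR502C), S-adenosylmethionine synthetase, was at -0.60 ± 0.14 and -0.63 ± 0.096, and CYS3 (YAL012W), cystathionine gamma-lyase, at -0.47 ± 0.22 and -0.63 ± 0.080. SAM1 (YLR180W), the near-identical partner of SAM2, was at -0.25, -0.24 and -0.46 in the strain labelled null and -0.47, -0.43 and -0.51 in dot4-1. It was at -0.044, 0.061 and -0.10 in dot4-5 and -0.29, -0.26 and -0.25 in untagged DOT4. SAM1 was lower in all but dot4-5 (limma, adjusted p = 7.57e-05, 2.08e-06 and 0.00124), although with untagged DOT4 in Cy3 alone it was at -0.11 and missed the threshold. The 2 transcripts can cross-hybridise, so which of them changed is uncertain.

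Along the sulfate reduction steps, MET3 (YJR010W), ATP sulfurylase, was at -0.27, -0.42 and -0.43 in the strain labelled null, -0.20, -0.31 and -0.38 in dot4-1 and -0.15, -0.11 and 0.046 in dot4-5. In untagged DOT4 its first set had an empty cell, and sets 2 and 3 were at -0.75 and -0.43. MET3 was lower in the strain labelled null, dot4-1 and untagged DOT4, and the last value, -0.59 ± 0.23 (n = 2 sets, limma, adjusted p = 0.000338), was -0.25 in Cy5 and -0.80 in Cy3 and missed the threshold in Cy5 alone. MET16 (YPR167C), PAPS reductase, was lower at -0.46 ± 0.13 in the strain labelled null and -0.18 ± 0.069 in dot4-1. The dot4-1 value was 0.0003 with the strain in Cy5 and -0.36 with the strain in Cy3. MET14 (YKL001C), APS kinase, was lower in the strain labelled null at -0.20 ± 0.080. MET10 (YFR030W), a sulfite reductase subunit, passed in none and had the widest spread of any member, with 0.31, -0.79 and 0.35 in the sets of untagged DOT4. That spread was pooled into the fit of every strain. In the strain labelled null the sets of MET10 were at -0.29, -0.34 and -0.35, and all 6 arrays were below 0. It missed the threshold there (limma, adjusted p = 0.0953). MET17 (YLR303W), which builds sulfide into homocysteine, was higher at 0.16 ± 0.13 and 0.14 ± 0.093 and lower in untagged DOT4 at -0.21 ± 0.026. MET2 (YNL277W), which supplies its substrate, was at 0.13 and 0.14 and missed the threshold. Measured sulfur genes outside these 10 were mixed in the strain labelled null and dot4-1. For example, MET5 was lower there at -0.64 and -0.65, and STR2 was higher at 0.11 and 0.36.

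**Figure D4:**
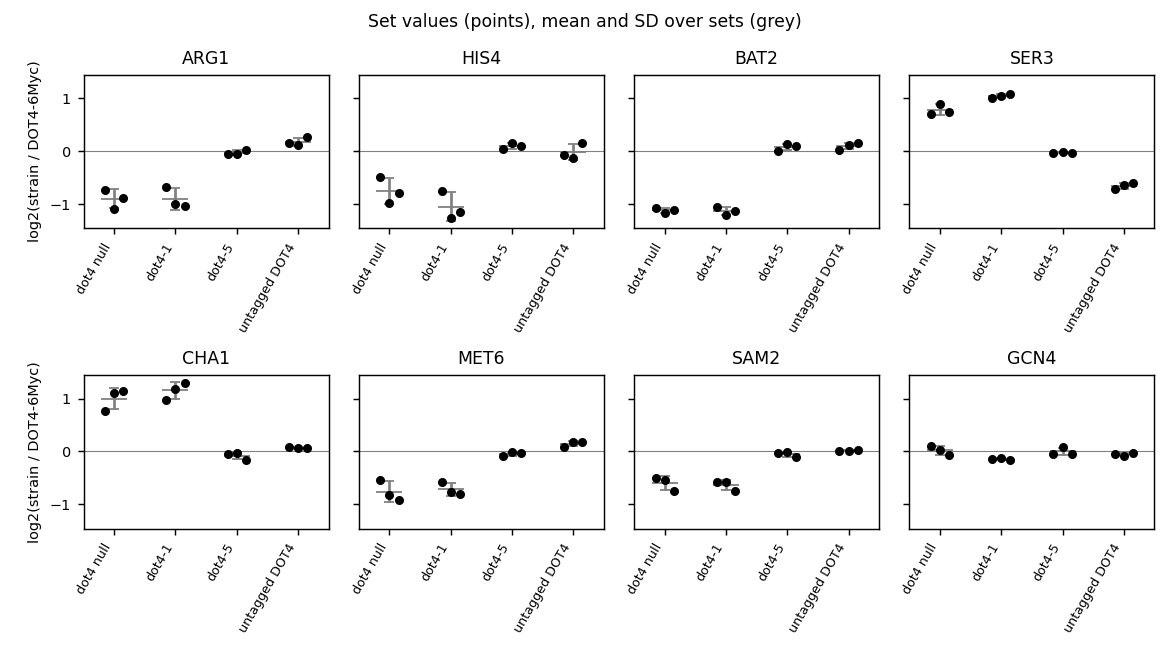
Points are the log2 ratios of sets 1, 2 and 3 in each strain for 8 genes, and grey bars give the mean and SD over sets. ARG1, HIS4, BAT2, MET6 and SAM2 are low and SER3 and CHA1 high in the strain labelled null and dot4-1; SER3 is low in untagged DOT4, and GCN4 stays between -0.16 and 0.10.

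Read across the strains, 17 members (30.9%) were lower in both the strain labelled null and dot4-1 and passed in neither of the other strains, a pattern held by 19.7% of all genes tested. Among them were ARG1, HIS4, BAT2, MET6, SAM2, CYS3 and the 3 HOM genes. A further 7 (12.7%, against 2.5% of all genes) were lower in those strains and in untagged DOT4, namely LYS20, TRP2, ARO4, THR4, SER1, MET3 and SAM1. In 9 members (16.4%, against 2.23% of all genes), the calls were lower in dot4-1 and untagged DOT4 and not in the strain labelled null. These were HIS1, LYS21, LEU9, ILV2, ILV3, BAT1, ARO2, ARO3 and THR1. Both of the last patterns include the calls in untagged DOT4, which moved with the processing as given above. ARG8, CPA1, SER3 and MET17 (7.27%, against 6.6%) were higher in the first 2 strains and lower in untagged DOT4, and ILV5 and CHA1 (3.64%, against 17.3%) were higher in the first 2 strains alone. Of the others, 9 (16.4%, against 15.3%) passed in no strain and 7 had patterns that 1 or 2 genes shared. These groups are counts of calls, and a call in one strain and none in another is not a test of the difference, which follows.

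The strain labelled null and dot4-1 were compared with each other through the shared reference. Of the 55 members, 5 were higher in the strain labelled null than in dot4-1 and 2 lower, or 9.09% and 3.64%, where 4.99% and 4.83% of all genes were. The higher ones were ILV6 at 0.28 ± 0.068 (SE), ARO4 at 0.28 ± 0.066, HOM2 at 0.26 ± 0.063, THR1 at 0.26 ± 0.067 and HIS1 at 0.22 ± 0.056. The lower ones were MET16 at -0.28 ± 0.067 and SER3 at -0.26 ± 0.055 (limma, adjusted p = 0.0147 to 0.0334). HOM2, for example, was at -0.18, -0.27 and -0.42 in the sets of the strain labelled null and -0.51, -0.56 and -0.59 in dot4-1, which do not overlap. The sets of ILV6 were at 0.031, -0.21 and -0.28 in the strain labelled null and at -0.41, -0.47 and -0.43 in dot4-1, which do not overlap either. These calls were fragile: 0 members were called without centring, with scaled arrays, or with these strains fitted alone. Leaving out set 3 of the strain labelled null gave 13 higher, and leaving out set 2 or set 3 of dot4-1 gave 0 in either direction. Since same-numbered sets of these strains deviated together, they were also fitted as pairs, which gave 7 higher and 3 lower. BAT2 and ARG1, among the lowest genes in both strains, differed by 0.011 ± 0.057 and 0.0031 ± 0.10 and missed the threshold.

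Between dot4-1 and dot4-5, 31 members were lower in dot4-1 and 5 higher, or 56.4% and 9.09%, where 31.4% and 29.6% of all genes were. In total 36 members were called, against 25 without centring and 20 with arrays scaled to a common spread. The largest differences were CHA1 at 1.23 ± 0.098 (SE), BAT2 at -1.21 ± 0.057, HIS4 at -1.15 ± 0.14, SER3 at 1.07 ± 0.055 and ARG1 at -0.88 ± 0.10 (limma, adjusted p = 3.77e-08 to 3.44e-05). Each of these genes was near 0 in dot4-5, so the differences lay close to the dot4-1 values themselves. With scaled arrays, 15 members were lower. Against untagged DOT4, which has no 6Myc tag, 18 members (32.7%) were lower in the strain labelled null and 12 (21.8%) higher, where 27.2% and 27.7% of all genes were. Among the genes called there, 50.5% were higher, against 69.6% without centring, and 10 members were lower without centring. SER3 differed most, at 1.44 ± 0.055, followed by BAT2 at -1.22 ± 0.057, ARG1 at -1.08 ± 0.10, CHA1 at 0.93 ± 0.098 and MET6 at -0.91 ± 0.088 (limma, adjusted p = 1.43e-08 to 7.76e-06).

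Dye orientation moved many members. In 37 of the 55 the mean of the 3 arrays with the compared strain in Cy5 was below the mean of those with it in Cy3 in all 4 strains, and in 7 it was below in none. The same count was not made over all genes, so it is not shown to be particular to the members. Over all genes, the dye component correlated at 0.822 to 0.906 between strains. Averaging both orientations within a set cancels such a shift. Both orientations had the same sign for 33 of the 34 members called in the strain labelled null. The exception was ILV6, at -0.42 in Cy5 and 0.11 in Cy3. The counts were 39 of 42 in dot4-1 and 22 of 24 in untagged DOT4. Calls were made on the average of the 2 orientations, so this agreement is partly built in. It was not counted over all genes called. The median gap between orientations was 0.21 in the strain labelled null and 0.19 in untagged DOT4, and the widest was 0.94, for ARG3 in the strain labelled null. One sign on all 6 arrays was found for 63.6% of members in dot4-1 (63.2% of all genes), 40% in the strain labelled null (44.3%), 40.7% in untagged DOT4 (28.7%) and 5.45% in dot4-5 (5.59%). The members varied more between sets in the strain labelled null, with a median SD of 0.12, than in dot4-1 (0.061), untagged DOT4 (0.055) and dot4-5 (0.044). The fit pooled this spread over the strains, so the median SE was 0.046 in each. P-values of the strain labelled null thus drew on the tighter sets of the others, and 28 of its members were called when it was fitted alone.

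**Figure D5:**
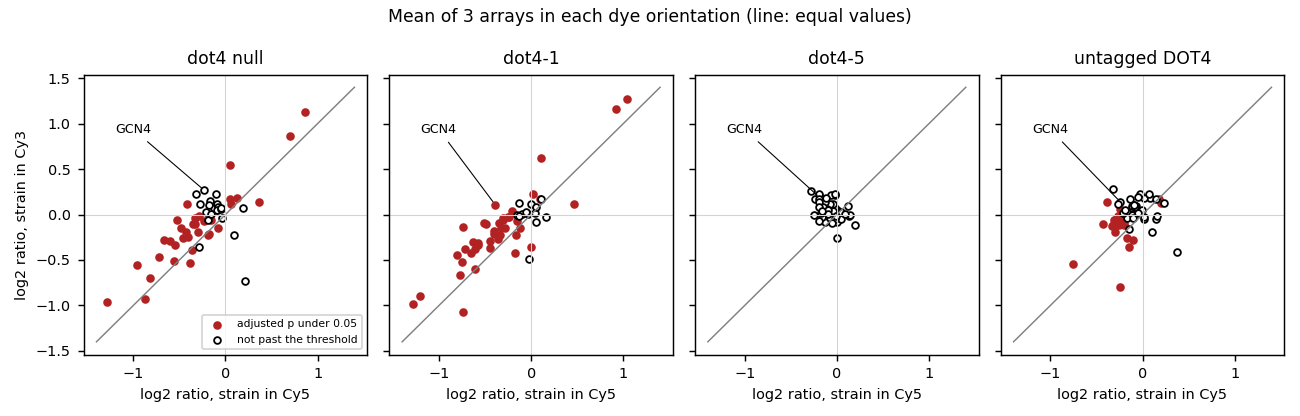
Each point is a gene, with the mean log2 ratio of 3 arrays with the compared strain in Cy5 on the x axis and in Cy3 on the y axis; red points passed an adjusted p of 0.05 and the line marks equal values. Most points lie above the line, including GCN4, as 37 of 55 genes are lower in Cy5 in all 4 strains.

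Other genes of amino acid metabolism showed where the members stood. Of all genes, 30.7% were higher and 32.7% lower in the strain labelled null, 35.9% and 37.5% in dot4-1, and 11.2% and 14.6% in untagged DOT4. Of 11 genes that control Gcn4 synthesis, 7 (63.6%) were higher and 2 (18.2%) lower in the strain labelled null. The counts were 5 (45.5%) and 2 (18.2%) in dot4-1, and 0 and 8 (72.7%) in untagged DOT4. GCN20, which helps activate the Gcn2 kinase, was higher at 0.34 and 0.26 in the first 2 strains. GCD6 and GCD2, subunits of the initiation factor eIF2B, were higher at 0.26 and 0.30 in the strain labelled null. In dot4-1 they were at 0.43 and 0.42. The lower genes in the strain labelled null were GCN1 and GCN2, both at -0.13. In dot4-1 they were GCN1 at -0.20 and YIH1, an inhibitor of Gcn2 activation, at -0.21. In untagged DOT4, YIH1 was lower at -0.21 and GCD11, a subunit of eIF2, at -0.20. Of 15 pathway regulators, 7 (46.7%) were higher and 1 (6.67%) lower in the strain labelled null and 10 (66.7%) and 0 in dot4-1. LEU3, the activator of leucine genes, was higher at 0.52 ± 0.044 and 0.70 ± 0.027, while LEU4 and LEU1 were lower in the same strains. BAS1, which acts in histidine and purine synthesis, was higher at 0.47 and 0.58, and MET31, of the sulfur pathway, at 0.39 and 0.59. MET28, a partner of Met4, was lower in the strain labelled null at -0.40 and higher in untagged DOT4 at 0.26, where 2 of the 15 were higher and 1 was lower. The list is named for regulators, and it includes MET30, which restrains Met4.

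Of 36 further synthesis enzymes, 11 (30.6%) were higher and 15 (41.7%) lower in the strain labelled null. The counts were 11 (30.6%) and 16 (44.4%) in dot4-1, and 3 (8.33%) and 11 (30.6%) in untagged DOT4. Their higher shares were thus near or below those of all genes (30.7%, 35.9% and 11.2%). Their lower shares were above those of all genes (32.7%, 37.5% and 14.6%). GLN1, glutamine synthetase, was lower at -0.67 ± 0.18 and -0.78 ± 0.15, and AAT1, the mitochondrial aspartate aminotransferase, was higher at 0.65 ± 0.23 and 0.72 ± 0.15. MET22, needed for sulfate assimilation, was lower in the strain labelled null and dot4-1, at -0.44 and -0.75. SHM2, a serine hydroxymethyltransferase, was lower in the strain labelled null, dot4-1 and untagged DOT4, at -0.39, -0.49 and -0.40. ARO9, an aromatic aminotransferase, was higher in untagged DOT4 at 0.37 and in the strain labelled null at 0.37. The list of permeases has 18 genes and includes the sulfate permeases SUL1 and SUL2. Of these, 9 (50%) were lower and 1 (5.56%) higher in the strain labelled null. The counts were 10 (55.6%) and 1 (5.56%) in dot4-1, and 4 (22.2%) and 3 (16.7%) in untagged DOT4. MUP3, a low-affinity methionine permease, was lower in all 3 strains, at -0.75, -0.86 and -0.26. GAP1, the general amino acid permease, was lower in the strain labelled null and dot4-1 at -0.53 and -0.29 and higher in untagged DOT4 at 0.56. AGP1, a broad amino acid permease, was lower in the strain labelled null and dot4-1, at -0.46 and -0.48. It was higher in untagged DOT4 at 0.37. AGP3 was lower in the strain labelled null at -0.54 and missed the threshold in dot4-1 at -0.17. SUL2 was lower in the strain labelled null and dot4-1, at -0.47 and -0.50. In dot4-5, limma called 0 genes of these 4 lists, and 0, 1, 6 and 2 of them in that order had an unadjusted p under 0.05. The shares of all genes given above apply to these lists too.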

How the data were processed

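The deposited values were log2 ratios of the 2 channels of each array, 1 value for each of 6205 open reading frames on 24 arrays, with 83 of 148920 cells empty. The labels name the columns as Cy5 over Cy3 and state no scale, so the log2 scale was read from the values. The sources used here do not give the array type, background subtraction, normalization or genome build, and no signal over background was used. Each array was centred on its median (the deposited medians ran from -0.092 to 0.28) and turned to the compared strain over DOT4-6Myc, opposite to the order in the labels, because UBP10 would otherwise be higher in the strain labelled null. The dye component, which keeps its sign when strains exchange dyes, correlated across genes at 0.822 to 0.906 between strains, and within 1 orientation the strain labelled null and untagged DOT4 correlated at 0.038 in Cy5 and -0.067 in Cy3.

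The 2 arrays of a set were averaged, and limma 3.58.1 in R 4.3.3 fitted 1 mean per strain to the 12 set means (lmFit and eBayes, 8 residual degrees of freedom). Genes with at least 2 sets in every strain, 6195 in all, were tested two-sided with Benjamini-Hochberg adjustment over all of them, in 7 comparisons; 10 genes were left out. Precision is limited by the number of arrays. The fit was tested on simulated data. Deviations of same-numbered sets from their strain means correlated at -0.30 to 0.67, and only the strain labelled null and dot4-1 had all 3 above 0.1 (0.67, 0.51 and 0.32), so the numbers were taken to pair these strains.

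Set values are given for GCN4, CHA1 and the 6 members with the largest means past the threshold and of 1 sign in all sets of a strain, and differences for the 5 largest per pair of strains. Pathway extremes, and the 2 largest genes of each further list in a strain, are named too, and any of the 55 members may be, except 1 that is counted but not reported here by name. The members and lists were chosen with earlier results of these data known. Alternatives changed centring, scaling, dye orientation, the block, the samples fitted, the gene filter and the sets included. Plots were made in matplotlib 3.10.9 under Python 3.11.15.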

Additional observations from a re-analysis of the deposited data

Results flagged for a closer look

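A test of the difference between strains picked out 15 values, the 5 largest past the threshold in each of 3 comparisons of strains (limma, adjusted over all genes). Between the strain labelled null and dot4-1, ILV6 differed by 0.28, ARO4 by 0.28, HOM2 by 0.26 and THR1 by 0.26, all higher in the strain labelled null, and MET16 differed by -0.28. With the sign given, THR1 passed in 6 of the 17 alternatives run, HOM2 in 8, ARO4 in 9, and ILV6 and MET16 in 10 each.

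Between dot4-1 and dot4-5, CHA1 differed by 1.23 and SER3 by 1.07, both higher in dot4-1, while BAT2 differed by -1.21, HIS4 by -1.15 and ARG1 by -0.88. In the strain labelled null against untagged DOT4, SER3 differed by 1.44 and CHA1 by 0.93, and BAT2 differed by -1.22, ARG1 by -1.08 and MET6 by -0.91. The 5 differences between dot4-1 and dot4-5 passed with the sign given in 15 of 15 alternatives. Those of the last comparison did so in 15 of 16, and for each the sign turned in the remaining one, which swaps the strain names on the null arrays alone.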

How the results depend on the processing

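Over all alternatives, 147 counts of members called stayed within 1.5 times the reported count and 45 did not; of the values of named members, 462 kept their sign and side of the threshold, 47 fell below it, 2 came past it and 16 turned. Without centring, untagged DOT4 had 0 higher, the strain labelled null against dot4-1 had 0 and 0, and 10 were lower in the strain labelled null than in untagged DOT4. With arrays scaled to a common spread, dot4-5 had 2 higher and 6 lower, untagged DOT4 had 7 higher, the strain labelled null against dot4-1 had 0 and 0, and dot4-1 against dot4-5 had 15 lower. With the compared strain in Cy5 only, dot4-1 had 3 higher, dot4-5 8 lower, untagged DOT4 4 higher, and the strain labelled null against dot4-1 1 higher and 1 lower. With it in Cy3 only, the strain labelled null had 12 higher, dot4-5 7 higher and 1 lower, untagged DOT4 8 higher and 7 lower, and the strain labelled null against dot4-1 3 higher and 1 lower. With separate arrays and the set as a random block, untagged DOT4 had 5 higher and the strain labelled null 2 higher than in dot4-1. With the strains compared fitted alone, the strain labelled null had 4 higher, untagged DOT4 5 higher, and the strain labelled null against dot4-1 0 and 0. With the set number as a replicate block, untagged DOT4 had 4 higher, and the other counts stayed within 1.5 times. Leaving out 1 set at a time gave 4 to 7 higher in the strain labelled null, 0 to 3 higher and 13 to 16 lower in untagged DOT4, and 0 to 13 higher and 0 to 4 lower in the strain labelled null against dot4-1. With strain names exchanged on the null arrays only, 38 members were higher and 8 lower than in dot4-1, 31 were higher and 3 lower than in untagged DOT4, and signs turned for MET16 (0.64) against dot4-1 and for SER3 (-0.13), BAT2 (1.03), ARG1 (0.72), CHA1 (-1.07) and MET6 (0.61) against untagged DOT4. GCN4 turned in the strain labelled null (-0.23 in Cy5 only; -0.023 to 0.059 with 1 set left out), in dot4-1 (0.11 in Cy3 only), in dot4-5 (-0.021 scaled; -0.19 in Cy5 only; -0.042 to 0.022 with 1 set left out) and in untagged DOT4 (0.14 in Cy3 only). CHA1 turned in dot4-5 (0.018 in Cy3 only) and in untagged DOT4 (-0.0062 without centring; -0.047 in Cy5 only). In Cy3 only, pathway medians turned in dot4-5 for the branched-chain (0.063), aromatic (0.054) and serine (0.045) genes and in untagged DOT4 for lysine (0.058) and threonine (0.049). The causes were not tested. The paired fit of the strain labelled null and dot4-1 was added after the data were seen. The description of promoter motifs was not run, because no promoter sequences were used here.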
